A study of Mus musculus with 16 samples.

Results

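Type 2 diabetes risk has been mapped in people to many regions of the genome, and at some of them 1 gene is held to be the likely effector. The 10 genes described here are mouse counterparts of such genes or of proposed candidates: Adcy5, Camk1d, Dgkb, Tcf7l2, Jazf1, Prox1, Nfatc2ip, Igf2bp2, Cdkal1 and Wfs1. The authors of the data list NFATC2IP, the human counterpart of Nfatc2ip, as a new candidate rather than an established gene. Members were picked out by gene name, and all 10 were found among the 54146 genes in the expression tables. RNA was sequenced from whole pancreatic islets of the 8 inbred strains that founded the Diversity Outbred mouse population. The strains were 129S1_SvImJ (129), A_J (AJ), C57BL/6J (B6), CAST_EiJ (CAST), NOD_ShiLtJ (NOD), NZO_HlLtJ (NZO), PWK_PhJ (PWK) and WSB_EiJ (WSB). Mice of both sexes were 26 weeks old, and every group, including B6, was on a high-fat diet, so there is no group on another diet to compare with. No group carried an engineered allele or was given a drug.

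Whole islets hold beta, alpha and delta cells together with blood vessel, immune and other cells, and some exocrine tissue comes along when they are isolated. In beta cells, closure of potassium channels by glucose metabolism lets calcium in and releases insulin, and cyclic AMP and diacylglycerol strengthen that release. Adcy5 makes cyclic AMP, Camk1d is a kinase switched on by calcium and calmodulin, and Dgkb removes diacylglycerol by phosphorylating it. Tcf7l2 is the transcription factor at the end of the Wnt pathway, Prox1 a homeobox transcription factor of pancreas and liver development, Jazf1 a zinc finger protein that acts with nuclear receptors, and Nfatc2ip a protein that binds NFAT factors. Igf2bp2 binds messenger RNA, Cdkal1 modifies a transfer RNA needed for accurate translation, and Wfs1 is a membrane protein of the endoplasmic reticulum whose loss causes Wolfram syndrome, a form of diabetes.

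The data were 91 libraries: 18 of B6, 16 of WSB, 14 each of AJ and CAST, 10 each of 129 and NOD, 5 of PWK and 4 of NZO. Whether each library came from a separate mouse was not stated, so p-values measure the spread between libraries. Total expected counts were 16928552 to 35196145 per library. In 12 libraries, 6 of 129, 4 of WSB and 2 of NOD, the counts of Xist and Y-linked genes went against the labelled sex, and the only NZO library labelled male held both. The labels state that animals were handled in 4 waves but do not give the wave of a library. All libraries of 129, NOD, NZO and PWK carry numbers from 66 to 100 and all others numbers from 1 to 65, so each strain was also set against the other 3 strains of its own number range. All 6 beta, 6 alpha and 3 delta cell markers were detected in every library, with summed beta cell levels of 158050 to 545572 TPM (a share of all transcripts in the library, corrected for transcript length). Sums over 10 acinar markers ran from 1801 to 336610 TPM. Sums over 8 immune markers were 158 to 6366 TPM in NOD and at most 794 TPM in the other 7 strains. In such bulk samples, fewer cells of a type and less RNA per cell cannot be told apart.

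The genes lie on 9 chromosomes of GRCm38, and their spans differ widely. Dgkb on chromosome 12 (37817726 to 38634239, plus strand) covers 816.514 kb, Cdkal1 on chromosome 13 (29191746 to 29855674, minus strand) 663.929 kb and Camk1d on chromosome 2 (5293457 to 5714515, minus strand) 421.059 kb. Nfatc2ip on chromosome 7 (126382854 to 126396737, minus strand) and Wfs1 on chromosome 5 (36966104 to 36989205, minus strand) are the shortest, at 13.884 and 23.102 kb. Tcf7l2 lies on chromosome 19 (55741820 to 55933654, plus strand), Jazf1 on chromosome 6 (52768797 to 53068631, minus strand) and Prox1 on chromosome 1 (190118035 to 190170714, minus strand). Adcy5 (35154877 to 35305738, plus strand) and Igf2bp2 (22059009 to 22163299, minus strand) share chromosome 16. Tcf7l2 has the most annotated transcripts, 22, and Adcy5 and Nfatc2ip the fewest, 2 each.

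RefSeq promoter sequence of build GRCm38.p6 was held for all 10 genes, in 14 windows. The 250 bases before the start site are printed for Adcy5 and Igf2bp2, since these were the members with the largest share of variance between strains (73.6% and 74.9%). Both were read from the C57BL/6J reference, and the other strains' alleles were not analysed here. Capitals mark a GC box (GGGGCGGGG on either strand), the letters bound by Sp1-type factors.
Adcy5, chr16:35154614-35154863, plus strand: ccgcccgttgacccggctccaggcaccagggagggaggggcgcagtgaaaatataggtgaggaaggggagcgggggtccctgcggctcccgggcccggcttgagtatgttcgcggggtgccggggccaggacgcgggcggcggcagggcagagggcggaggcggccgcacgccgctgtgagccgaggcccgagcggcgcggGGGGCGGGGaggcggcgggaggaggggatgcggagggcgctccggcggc
Igf2bp2, chr16:22163300-22163549, minus strand: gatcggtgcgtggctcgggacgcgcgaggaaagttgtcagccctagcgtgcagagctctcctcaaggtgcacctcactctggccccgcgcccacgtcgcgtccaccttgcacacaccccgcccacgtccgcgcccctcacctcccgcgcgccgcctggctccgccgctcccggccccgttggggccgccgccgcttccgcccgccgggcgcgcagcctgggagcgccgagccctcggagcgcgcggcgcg
Both windows are rich in G and C, with 77.2% for Igf2bp2 and slightly more for Adcy5, against a median of 52.4% over all 32851 promoter windows. The GC box was present in 4 of the 14 windows, those of Adcy5, Tcf7l2, Jazf1 and Wfs1, and in 10.4% of all windows. The Tcf7l2 family's core letters (CTTTGA) were found for Dgkb alone among the members and in 13.8% of all windows. The cyclic AMP response element (TGACGTCA, in 1.55% of windows) and the endoplasmic reticulum stress response element (in 0.113%) were found in none of the 14, and no match says only that these letters are absent from the window.

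In islets, these genes spanned a wide range of levels. Wfs1 was the most abundant, at 47.9 ± 11.8 TPM (SD, n = 91), above 91.05% of the 15204 genes tested. Prox1 (13.3 ± 4.05 TPM) and Jazf1 (11.6 ± 2.98 TPM) were also above the median gene, which stood at 7.76 TPM. The other 7 were below it: Cdkal1 at 4.72 ± 1.03, Camk1d at 2.41 ± 1.14, Tcf7l2 at 2.21 ± 0.602, Nfatc2ip at 1.69 ± 1.05, Igf2bp2 at 1.52 ± 0.699, Adcy5 at 0.898 ± 0.494 and Dgkb at 0.819 ± 0.336 TPM. Depth set their precision: Wfs1 had 1739 to 6239 expected counts per library, whereas Igf2bp2 had 14 to 215, Dgkb 16 to 195 and Adcy5 38 to 393.

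All 10 genes differed between strains in an edgeR quasi-likelihood F test with sex as covariate, with p-values adjusted for multiple testing over all genes from 1.0e-22 for Adcy5 to 0.000156 for Wfs1. With counts summed to 1 value for each strain and sex, Tcf7l2 did not pass (adjusted p = 0.229). Of all genes tested, 97.4% were called by this test, so the count of members is near the background. The size of the strain effect separated the members better. Strain accounted for 74.9% of the variance of log2 normalized counts for Igf2bp2 and 73.6% for Adcy5, more than for 87.4% and 85.6% of genes tested. For Wfs1 (28.9%) and Tcf7l2 (29.5%) the share was larger than for only 14.4% and 15.3% of genes. The median share was 54.2% for the members and 50.9% for all genes tested.

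**Figure D1:**
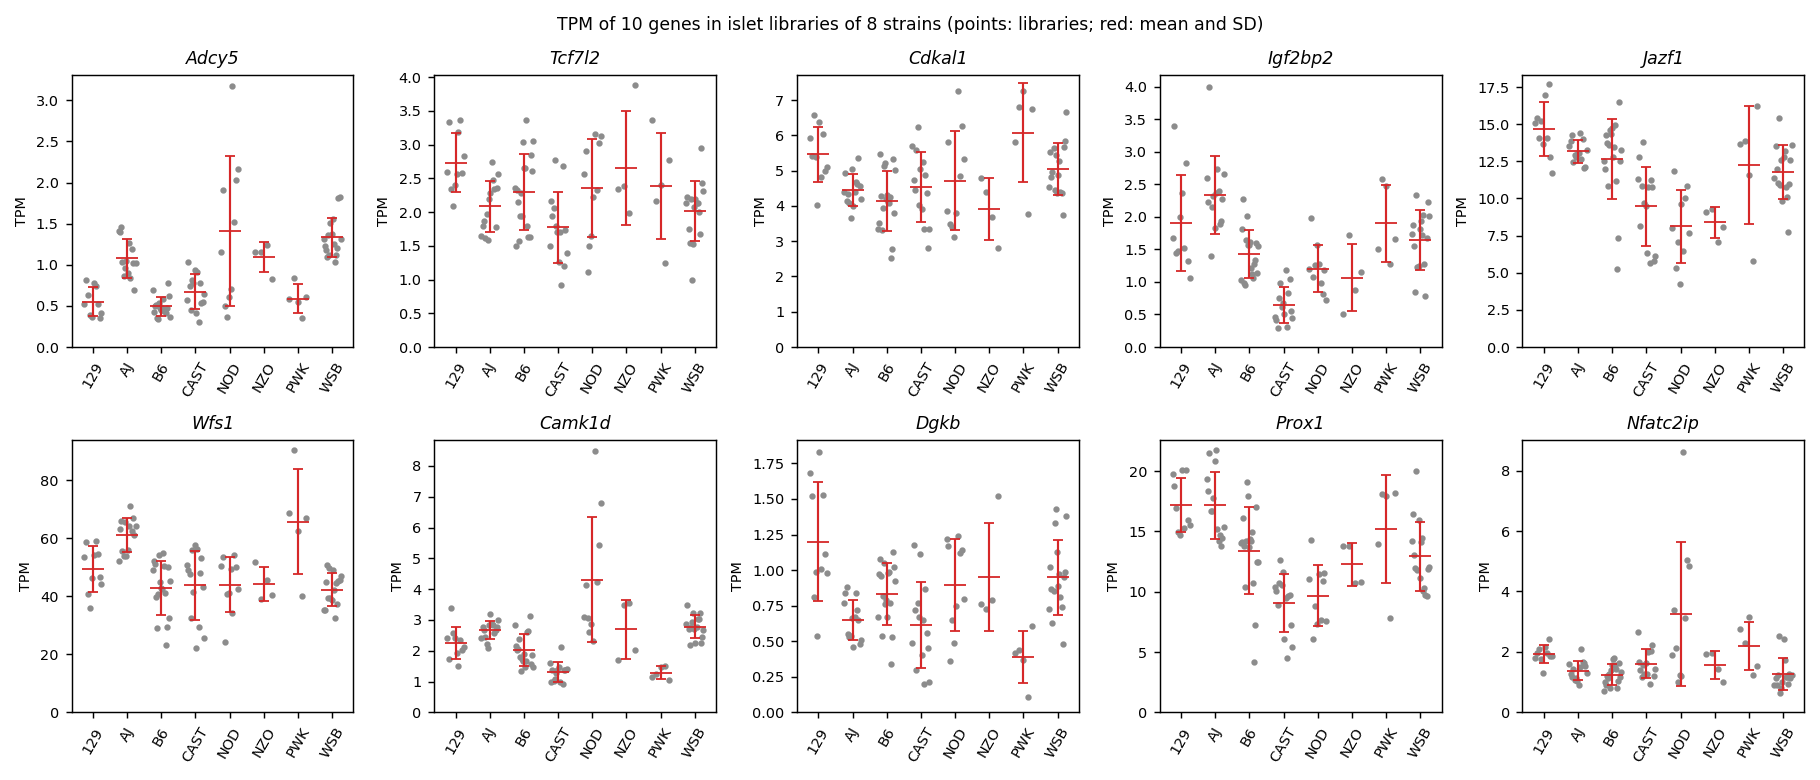
TPM of each of the 10 genes (vertical axes, from 0) in the libraries of 8 strains (horizontal axes), with each library as a grey point and the strain mean and SD in red. All WSB libraries lay above all B6 and 129 libraries for Adcy5, Igf2bp2 was lowest in CAST, and single NOD libraries stood far above the rest for Nfatc2ip, Camk1d and Adcy5.

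Over the 28 pairs of strains, 151 of 280 gene and pair combinations passed the test, where 50.3% of all gene and pair combinations did. Adcy5 differed in 21 pairs, Igf2bp2 and Camk1d in 18 each, and Tcf7l2 in 9, the fewest. When each strain was set against the mean of the other 7, 47 of 80 combinations were called, 27 higher and 20 lower. In WSB, 6 members were higher and 1 lower (background 26.6% of genes higher and 29.7% lower), and in AJ 5 were higher and 4 lower (24.9% and 32.1%). In 129, 4 were higher and 1 lower (27.9% and 21%), in B6 4 and 2 (25.6% and 27.6%), and in NOD 4 and 2 (35.8% and 29.5%). In CAST, 2 were higher and 4 lower (26.7% and 31%), in PWK 2 and 3 (23.2% and 21.8%), and in NZO 0 and 3 (20% and 14.2%). The median difference of the 10 members was 0.26 on the log2 scale in WSB, beside -0.02 for all genes tested, 0.14 in AJ, beside -0.04, and -0.11 in CAST, beside -0.01. In the other 5 strains it lay between -0.07 and 0.08. With the comparison limited to the 4 strains of the same number range, 42 of the 47 calls were made again in the same direction and 47 calls were made in all, with 50.4% of all gene and strain combinations called. The 5 that were not made again were Jazf1 in AJ and WSB, Nfatc2ip in AJ and B6, and Prox1 in B6. AJ had the lowest median acinar sum of the 8 strains, 6110 TPM with libraries from 1801 to 23246, and with the mean log2 level of the acinar markers as a covariate 4 calls were lost. The log2 difference went from 0.32 to 0.26 for Adcy5 in AJ (adjusted p = 0.0693), from -0.26 to -0.22 for Tcf7l2 in AJ (adjusted p = 0.0533), from 0.17 to 0.15 for Jazf1 in AJ (adjusted p = 0.0781), and stayed at 0.15 for Prox1 in B6 (adjusted p = 0.0503). Without the 12 libraries that went against their sex label, the 129 calls of Igf2bp2 (log2 0.25, adjusted p = 0.310) and Jazf1 (0.18, adjusted p = 0.0847) and the B6 call of Prox1 (0.13, adjusted p = 0.0532) were lost. The NOD call of Dgkb (0.28, adjusted p = 0.0484) was lost with TMM scaling (0.27, adjusted p = 0.0529). It was also lost with counts summed to 1 value for each strain and sex (0.20, edgeR adjusted p = 0.349).

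**Figure D2:**
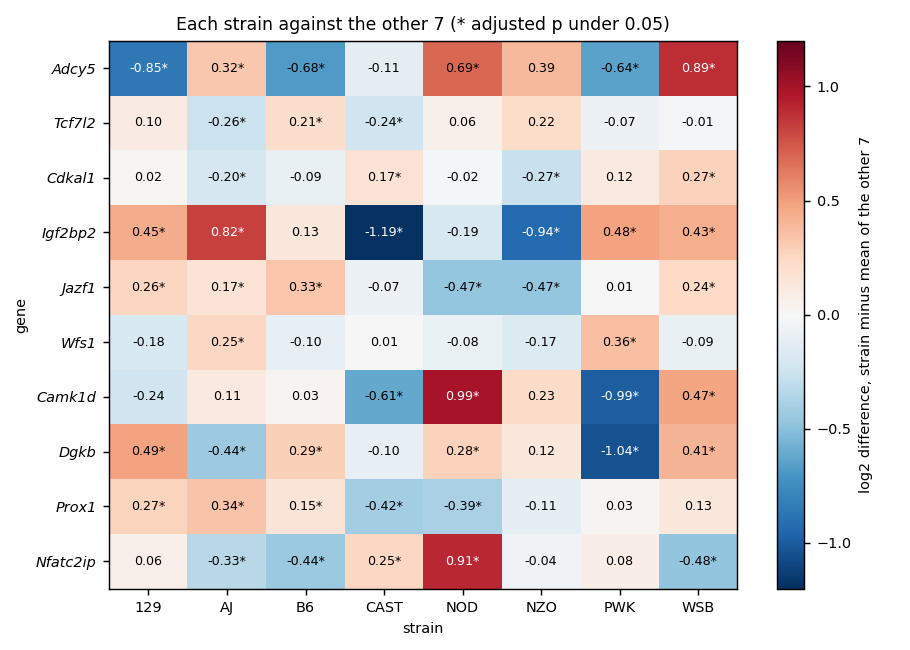
Fitted log2 difference between each strain (columns) and the mean of the other 7 strains for each gene (rows), with colour from blue (lower) to red (higher) and an asterisk at adjusted p under 0.05. The cells farthest from 0 are Igf2bp2 in CAST (-1.19), Dgkb in PWK (-1.04) and Camk1d in NOD (0.99) and PWK (-0.99).

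Among the signalling genes, Adcy5 was on average highest in WSB, NOD, NZO and AJ, lowest in 129, PWK and B6, and between them in CAST. WSB libraries ran from 1.03 to 1.83 TPM with a median of 1.28, and AJ libraries from 0.69 to 1.46 with a median of 1.03. B6 libraries ran from 0.34 to 0.78 with a median of 0.48, and those of 129 from 0.35 to 0.82 with a median of 0.52. The WSB libraries thus lay above every B6 and 129 library. CAST ran from 0.30 to 1.03 TPM with a median of 0.69, the 5 PWK libraries stood at 0.58, 0.84, 0.55, 0.35 and 0.61, and the 4 NZO libraries at 1.16, 1.15, 1.24 and 0.83. NOD had the widest spread, from 0.36 to 3.17 with a median of 1.34. In the fit, 129 was 2.88-fold below WSB (log2 -1.52 ± 0.14 SE, edgeR adjusted p = 1.8e-16) and B6 2.59-fold below WSB (adjusted p = 7.1e-19). Without the libraries against their sex label, the log2 difference between 129 and WSB was -1.66 ± 0.18 (adjusted p = 5.8e-12). Ordered by mean normalized count (the expected count divided by the library's size factor, the scale on which the strains were tested), the strains ran WSB, NOD, NZO, AJ, CAST, B6, PWK and 129. Of the 7 neighbouring pairs in that order, AJ and CAST (adjusted p = 0.00678) and CAST and B6 (adjusted p = 0.000178) differed by edgeR's test, and the other 5 did not pass.

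Adcy5 was a minor member of its family in this tissue. Adcy6, also a membrane adenylyl cyclase, averaged 34.5 TPM and Adcy9 14.1 TPM, and Adcy5 made up from 0.716 ± 0.177% (SD, n = 10) of the summed adenylyl cyclase TPM in 129 to 2.58 ± 0.320% (n = 16) in WSB. The strain order differed by family member: Adcy6 was highest in 129 (50.99 TPM) and lowest in NOD (26.9), and Adcy9 highest in AJ (21.9) and lowest in NOD (8.04). Adcy7, a cyclase known from blood cells, averaged 13.4 TPM in NOD, with libraries from 0.61 to 44.01, and no more than 1.83 TPM in any other strain. Of the 9 other adenylyl cyclase genes 8 were tested and all 8 differed between strains, as did 97.4% of all genes, while Adcy10 fell below the expression filter.

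**Figure D3:**
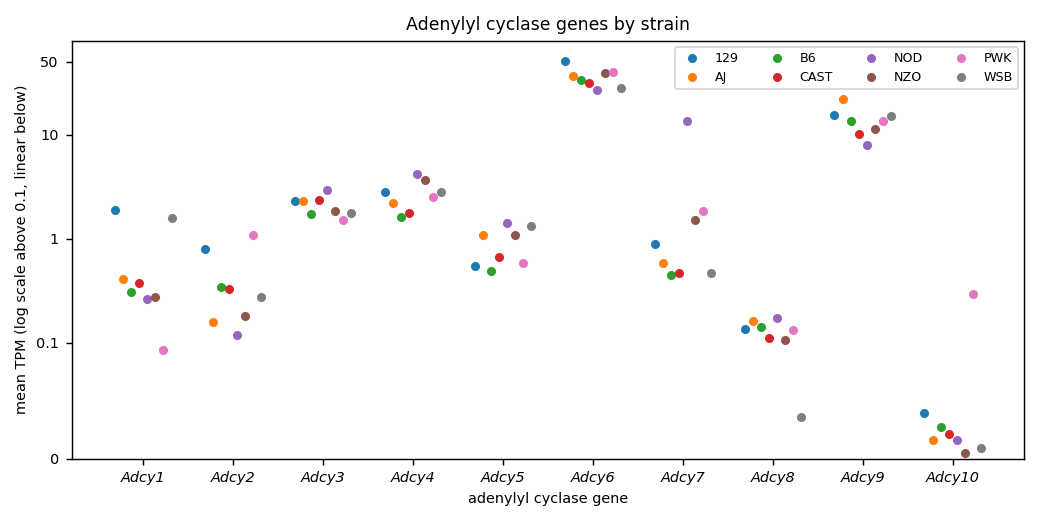
Mean TPM (vertical axis, logarithmic above 0.1 and linear below) of the 10 adenylyl cyclase genes (horizontal axis) in each strain, 1 colored point per strain. Adcy6 and Adcy9 carry most of the family's level in every strain, Adcy5 lies between 0.494 and 1.41 TPM, and Adcy7 stands apart in NOD at 13.4 TPM.

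Camk1d was highest in NOD and lowest in PWK and CAST. NOD libraries ran from 2.31 to 8.47 TPM with a median of 3.62, WSB from 2.19 to 3.48 with a median of 2.77, and CAST from 0.91 to 2.12 with a median of 1.36. The 5 PWK libraries stood at 1.14, 1.25, 1.47, 1.52 and 1.04 TPM, all below every NOD library. The 4 NZO libraries fell in 2 pairs, at 3.48 and 3.55 and at 1.70 and 2.04. The fitted difference between NOD and PWK was 3.33-fold (log2 1.73 ± 0.27 SE, edgeR adjusted p = 6.2e-08). In the order NOD, WSB, NZO, AJ, B6, 129, CAST and PWK, only the step from NOD to WSB passed (adjusted p = 0.0203, edgeR). The normalized counts behind this order ran from 200 to 881 in B6, where TPM ran from 1.34 to 3.14. B6 acinar sums ran from 6756 to 336610 TPM. With the acinar markers as a covariate, NOD was 0.84 ± 0.11 above the other 7 strains (log2 ± SE, edgeR adjusted p = 4.0e-11). For Camk1d, the part of exocrine tissue was not tested beyond such fits. All 6 genes of its list, the other calcium and calmodulin-dependent kinases and the kinases above them together with Cdc123, its neighbour at the human locus, differed between strains (97.4% of all genes did). Camk1 averaged 21.4 TPM, above Camk1d in every strain, and was also highest in NOD (31.4 ± 8.43, SD, n = 10), whereas Camk1g was lowest there (3.23 ± 0.959). Cdc123 ranged less, from 38.3 TPM in CAST to 55.001 in AJ.

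Dgkb was lowest in PWK, where the 5 libraries stood at 0.42, 0.44, 0.37, 0.11 and 0.61 TPM. Libraries of 129 ran from 0.54 to 1.83 with a median of 1.06 and those of WSB from 0.48 to 1.43 with a median of 0.92, so the strains overlapped by single libraries. CAST libraries were spread from 0.20 to 1.18. PWK was 2.53-fold below 129 (log2 difference 1.34, edgeR adjusted p = 5.0e-07; 1.49, adjusted p = 2.3e-07, without the libraries against their sex label) and 2.06-fold below the mean of the other 7 strains (log2 -1.04 ± 0.20 SE, adjusted p = 6.8e-06). AJ was also lower than the other 7 (log2 -0.44, adjusted p = 0.000904) and 129 higher (0.49, adjusted p = 0.000695). In the order 129, WSB, B6, NOD, NZO, CAST, AJ and PWK, only AJ and PWK differed as neighbours (adjusted p = 0.0274). The 8 other diacylglycerol kinase genes on the list were tested and differed between strains, as did 97.4% of all genes. Dgkz (42.5 TPM) and Dgkd (25.5 TPM) were the most abundant, and Dgka, known from T cells, averaged 27.7 TPM in NOD against 8.41 over all libraries.

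Igf2bp2, which binds messenger RNA, had the largest difference between 2 strains of any member. CAST libraries ran from 0.29 to 1.18 TPM with a median of 0.58, and AJ libraries from 1.40 to 4.00 with a median of 2.30, so the groups did not overlap. The 4 NZO libraries stood at 0.51, 1.72, 0.87 and 1.16 and the 5 PWK libraries at 1.51, 2.58, 2.47, 1.27 and 1.66. B6 libraries, from 0.96 to 2.28, overlapped both CAST and AJ. AJ was 3.39-fold above CAST (log2 1.76 ± 0.14 SE, edgeR adjusted p = 9.0e-20) and 2.91-fold above NZO (adjusted p = 2.0e-08). Against the other 7 strains, CAST was 2.28-fold lower (log2 -1.19 ± 0.12) and NZO 1.92-fold lower (-0.94 ± 0.20), while AJ, PWK, 129 and WSB were higher by 0.43 to 0.82 on the log2 scale (129 did not pass without the libraries against their sex label, at 0.25 with an adjusted p of 0.310). The order was AJ, PWK, 129, WSB, B6, NOD, NZO and CAST, in which only the step from NOD to NZO passed between neighbours (adjusted p = 0.0120). Igf2bp1 was below the filter, with a mean of 0.0147 TPM, and Igf2bp3 averaged 0.132 TPM, so Igf2bp2 carried most of the level of this family of 3.

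Cdkal1, the transfer RNA enzyme, varied less. Strain means ran from 3.92 ± 0.878 TPM in NZO (SD, n = 4) to 6.08 ± 1.40 in PWK (n = 5). On the count scale, WSB was highest, 1.39-fold above NZO (edgeR adjusted p = 3.2e-06), and WSB (log2 0.27) and CAST (0.17) were above the other 7 strains while AJ (-0.20) and NZO (-0.27) were below. The place of PWK differed by scale, highest in TPM and the third in normalized counts. TPM is corrected for transcript length. Weighted by isoform share, the Cdkal1 length averaged 2153 bases in PWK and 2372 to 2502 in the other 7 strains. No neighbours in the order of normalized counts (WSB, CAST, PWK, 129, NOD, B6, AJ, NZO) passed the test. Cdk5rap1, the enzyme that Cdkal1 resembles, and the kinase Cdk5 with its activator Cdk5r1 all differed between strains (97.4% of all genes did), and Cdk5 was the most abundant at 20.7 TPM.

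Wfs1 was higher in PWK and AJ than in the other strains. The PWK libraries stood at 68.9, 90.6, 62.4, 40.1 and 66.9 TPM, and AJ libraries ran from 52.1 to 71.1 with a median of 62.9. Means of the other 6 strains lay between 42.3 TPM in WSB and 49.5 in 129, and B6 and CAST libraries reached down to 23.3 and 22.1. Against the other 7 strains, PWK was 1.28-fold higher (log2 0.36 ± 0.10 SE, edgeR adjusted p = 0.00350) and AJ 1.19-fold higher (0.25 ± 0.07, adjusted p = 0.00112). In the order PWK, AJ, CAST, NOD, WSB, B6, NZO and 129, only AJ and CAST differed as neighbours (adjusted p = 0.0318). Cisd2, the other gene whose loss causes Wolfram syndrome, averaged 13.5 TPM and was highest in AJ (16.6 TPM), as was Atp6v1a, a proton pump subunit (32.4 TPM).

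Of the genes that act on transcription, Tcf7l2 varied least between strains. Strain means lay between 1.77 ± 0.529 TPM in CAST (SD, n = 14) and 2.73 ± 0.438 in 129 (n = 10). The largest fitted difference was 1.34-fold, between NZO and AJ (edgeR adjusted p = 0.0123). It rested on 1 library: the NZO libraries stood at 2.34, 2.38, 1.99 and 3.89 TPM, and without the highest, the library labelled male, the difference fell to 0.17 on the log2 scale (adjusted p = 0.427). That library also had the highest summed ductal markers of all libraries (871 TPM, beside at most 316 in the other 3 NZO libraries) and more immune marker RNA than the other 3 (794 TPM, beside at most 326), whose part in its value was not tested. AJ was also 1.33-fold below B6 (adjusted p = 9.1e-05). B6 was above the other 7 strains (log2 0.21) and AJ (-0.26) and CAST (-0.24) below, and no neighbours in the order NZO, B6, 129, NOD, WSB, PWK, CAST and AJ passed the test. Of its family, Tcf7l1 averaged 3.27 TPM, from 1.35 in CAST to 6.28 in NZO. Tcf7 and Lef1, factors known from T cells, averaged 34.8 and 6.82 TPM in NOD and at most 4.53 and 1.33 TPM in any other strain. Ctnnb1, the beta-catenin that Tcf7l2 binds, was abundant throughout, from 154 TPM in WSB to 245 in NZO.

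Jazf1 and Prox1 were both low in NOD. With the immune markers as a covariate neither NOD difference from the other 7 strains passed. It was -0.16 for Jazf1 (log2, edgeR adjusted p = 0.351) and 0.021 for Prox1 (adjusted p = 0.939). For Jazf1, NOD libraries ran from 4.26 to 11.9 TPM with a median of 7.83, the NZO libraries stood at 9.11, 9.32, 7.09 and 8.07, and those of 129 ran from 11.7 to 17.7 with a median of 14.6. NOD and NZO were each 1.38-fold below the other 7 strains (log2 -0.47 in both, edgeR adjusted p = 4.8e-09 and 0.000154), and B6 was the highest on the count scale, 1.62-fold above both. In the order B6, 129, WSB, AJ, PWK, CAST, NOD and NZO, CAST and NOD were the only neighbours that differed (adjusted p = 0.000120). Nr2c2, a nuclear receptor bound by Jazf1, was highest in PWK (11.9 TPM) and lowest in NZO (7.86).

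For Prox1, libraries ran from 13.8 to 21.7 TPM in AJ, with a median of 16.7, from 6.08 to 14.3 in NOD, with a median of 9.87, and from 4.54 to 12.6 in CAST, with a median of 9.69. No CAST library reached the lowest AJ library. AJ was 1.59-fold above CAST (edgeR adjusted p = 4.6e-09), and CAST (log2 -0.42) and NOD (-0.39) were below the other 7 strains. No neighbours in the order AJ, 129, B6, WSB, PWK, NZO, NOD and CAST passed the test. Nr5a2 and Hnf4a, nuclear receptors known to bind Prox1, were both highest in NZO (3.59 and 21.7 TPM), and Hnf4a was lowest in WSB (3.82 TPM).

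Nfatc2ip was higher in NOD than in each of the other 7 strains, with edgeR adjusted p-values of 0.00117 or less. NOD libraries ran from 1.02 to 8.62 TPM with a median of 2.63, those of B6 from 0.69 to 1.79 with a median of 1.23, and those of WSB from 0.65 to 2.52 with a median of 1.16. The PWK libraries stood at 2.75, 2.29, 3.16, 1.23 and 1.54 TPM. NOD was 2.31-fold above WSB (log2 1.21 ± 0.14 SE, edgeR adjusted p = 1.4e-12) and 1.88-fold above the other 7 strains (adjusted p = 1.5e-11). With the immune markers as a covariate the difference between NOD and WSB was 0.26 ± 0.23 (adjusted p = 0.514). In the order NOD, CAST, PWK, 129, NZO, AJ, B6 and WSB, only NOD and CAST differed as neighbours (adjusted p = 0.000270). All 5 NFAT genes differed between strains, as did 97.4% of all genes, and Nfatc1 was highest in NOD (13.4 ± 11.005 TPM, SD, n = 10).

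Immune marker RNA varied widely among the NOD libraries, and the levels of some members moved with it. In the 10 NOD libraries, the sum of the 8 immune markers and the level of Nfatc2ip were both highest in the same library (6366 TPM and 8.62 TPM), which was also highest for Adcy5 (3.17 TPM) and Camk1d (8.47 TPM). The NOD library with the lowest immune sum (158 TPM) stood at 1.02 TPM for Nfatc2ip, 0.36 for Adcy5 and 2.60 for Camk1d. With the mean log2 level of the immune markers as a covariate, the difference between NOD and the other 7 strains went from 0.91 to 0.073 ± 0.20 (log2 ± SE, edgeR adjusted p = 0.858) for Nfatc2ip and from 0.69 to 0.16 ± 0.20 (adjusted p = 0.640) for Adcy5. It went from -0.47 to -0.16 ± 0.11 (adjusted p = 0.351) for Jazf1 and from -0.39 to 0.021 ± 0.14 (adjusted p = 0.939) for Prox1. Camk1d kept more of its difference, 0.71 ± 0.27 from 0.99 (adjusted p = 0.0615), and that of Dgkb became larger with a larger error, 0.42 ± 0.23 from 0.28 ± 0.13 (adjusted p = 0.219). None of the 6 NOD calls passed in that fit. Without the library with the highest immune sum, the differences of Nfatc2ip (0.72, adjusted p = 1.6e-08), Adcy5 (0.54, adjusted p = 4.8e-06) and Camk1d (0.94, adjusted p = 6.8e-08) passed, and that of Dgkb (0.28, adjusted p = 0.0648) did not. The part of the immune markers in these results was not tested beyond these fits.

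**Figure D4:**
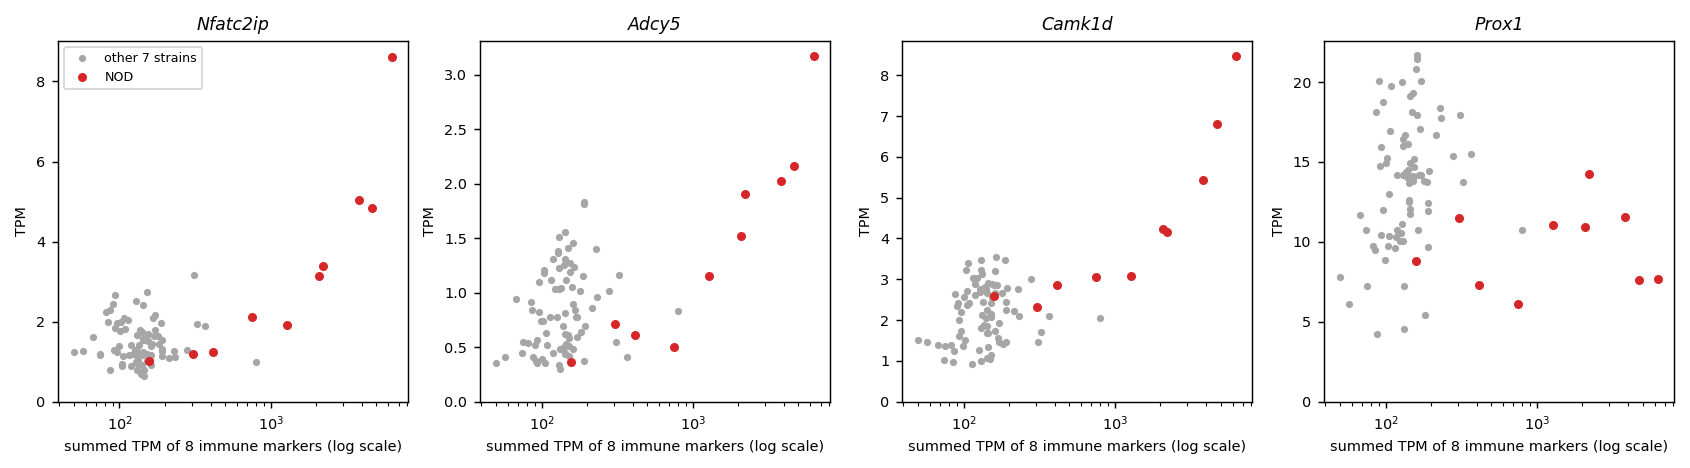
TPM of Nfatc2ip, Adcy5, Camk1d and Prox1 (vertical axes, from 0) against the summed TPM of 8 immune markers (horizontal axes, logarithmic) in each library, NOD in red and the other 7 strains in grey. NOD libraries reach an immune sum of 6366 TPM, and the same library holds the highest level of Nfatc2ip (8.62), Adcy5 (3.17) and Camk1d (8.47).

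Between the 3 wild-derived strains (CAST, PWK and WSB) and the 5 classical strains, Cdkal1 (log2 0.26 ± 0.04 SE) and Wfs1 (0.13 ± 0.06) were higher in the wild-derived strains, 2 of 10 members, where 24.9% of all genes were higher. Camk1d (-0.53 ± 0.12), Dgkb (-0.34 ± 0.10) and Tcf7l2 (-0.15 ± 0.06) were lower, 3 of 10, where 31.3% of all genes were lower. The adjusted p-values of edgeR were 1.8e-09 for Cdkal1, 7.3e-05 for Camk1d, 0.00150 for Dgkb, 0.0343 for Tcf7l2 and 0.0455 for Wfs1. The wild-derived strains did not act as 1 group. Camk1d was 0.61 below the other 7 strains in CAST and 0.99 below in PWK on the log2 scale, but 0.47 above in WSB. Dgkb was called higher in WSB and lower in PWK than the other 7 strains. Wfs1 averaged 65.8 TPM in PWK, 43.8 in CAST and 42.3 in WSB, the lowest mean of any strain. In 21 other fits the calls of Cdkal1 and Camk1d held, while Wfs1 lost its call in 10, Tcf7l2 in 6 and Dgkb in 1. Prox1 was called in 3 of them (with the immune markers as a covariate, without the libraries against their sex label and without NOD replicate 7) and Jazf1 in 1 (with summed counts), so fits with the same count did not always call the same members. The Camk1d difference was -0.85 ± 0.09 with the acinar markers as a covariate (adjusted p = 4.4e-13). Leaving out the NZO library labelled male, PWK replicate 2 or PWK replicate 4 left 3 members called, without Wfs1 and Tcf7l2. With the immune markers as a covariate the Wfs1 difference was 0.041 ± 0.058 (adjusted p = 0.581) and that of Tcf7l2 was -0.13 ± 0.07 (adjusted p = 0.121). With summed counts Dgkb (adjusted p = 0.0547) and Tcf7l2 (adjusted p = 0.261) did not pass.

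Sex was associated with 1 member, Adcy5, where 4.01% of all genes tested were called. Libraries labelled male were 1.21-fold lower than those labelled female (log2 -0.27 ± 0.07 SE, edgeR adjusted p = 0.0101). Mean Adcy5 TPM was lower in males in 7 of the 8 strains, with 129 as the exception (0.546 in 5 labelled female and 0.560 in 5 labelled male libraries). On the scale of normalized counts it was lower in males in 6 of the 8, since PWK, with 1 female library, was higher in males as well. NZO had 1 male library. In AJ, where no library went against its label, the 7 female libraries ran from 0.84 to 1.46 TPM. The 7 male libraries ran from 0.69 to 1.04, and the groups overlapped. Alpha marker sums of the same AJ libraries were 18143 to 25607 TPM in females and 12324 to 17214 in males. Delta marker sums were 4758 to 6562 TPM in females and 3823 to 4847 in males. The part of these cells was not tested. Without the 12 libraries whose sex genes went against the label, the difference was -0.37 ± 0.07 (adjusted p = 3.2e-05) and males were lower in 8 of 8 strains by mean TPM and in 7 of 8 by mean normalized count. In NOD the 4 remaining female libraries then stood at 1.15, 1.91, 1.52 and 2.03 TPM and the 4 male libraries at 0.50, 0.36, 0.61 and 0.71, with no overlap. The immune sums of the same libraries were 1271, 2204, 2088 and 3831 TPM in females and 753, 158, 416 and 307 TPM in males, and did not overlap either. Without any NOD library the sex difference of Adcy5 was -0.25 ± 0.07 (adjusted p = 0.0174), and with the immune covariate -0.26 ± 0.07 (adjusted p = 0.0126). With counts summed to 1 value for each strain and sex it was -0.21 ± 0.08 (adjusted p = 0.554).

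**Figure D5:**
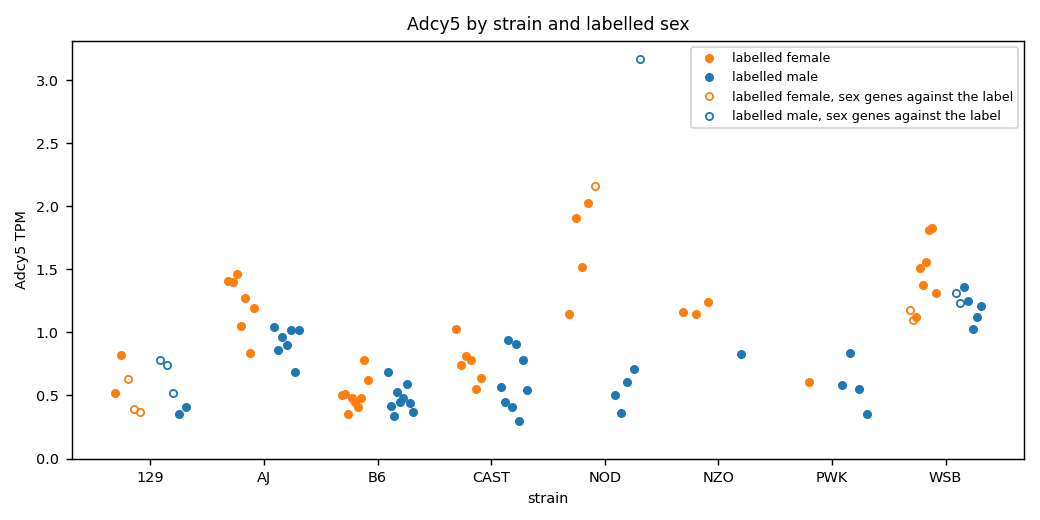
Adcy5 TPM (vertical axis, from 0) by strain (horizontal axis) in libraries labelled female (orange) and male (blue), with open circles for libraries whose Xist and Y-linked counts went against the label. Filled orange points lie above filled blue points in NOD without overlap, and the highest value, 3.17 TPM, is an open circle.

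Dgkb also passed for sex once those 12 libraries were left out (log2 -0.28 ± 0.08 SE, edgeR adjusted p = 0.0103). It did not with all libraries (-0.19 ± 0.08, adjusted p = 0.208). No share of all genes called for sex was kept for the fit without the 12. In AJ, female Dgkb libraries averaged 0.769 ± 0.0880 TPM and male libraries 0.531 ± 0.0615 (SD, n = 7 each). The AJ alpha and delta marker sums given above belong to the same libraries, and their part was not tested. In B6, mean Dgkb TPM was 0.792 in females and 0.873 in males, but mean normalized counts were 120 and 96.7 (n = 9 each). Mean Dgkb TPM was lower in males in 5 of 8 strains, and in 6 without the 12 libraries. By mean normalized count it was lower in 6 and 7. The other 8 members had adjusted p-values for sex of 0.527 or more with all libraries. No member had a strain by sex interaction past the threshold in the 6 strains that had 5 or more libraries per sex (82 libraries in all), where 5.9% of all genes did by edgeR. Camk1d came nearest, with an adjusted p of 0.0967 in edgeR, and it was the only member under 0.05 before adjustment. No member was called by limma-voom either. In B6, mean normalized Camk1d counts were 463 in females and 288 in males, and mean TPM 2.23 and 1.81. In WSB the counts were 434 and 548. Acinar sums ran from 25965 to 336610 TPM in B6 females and from 6756 to 126822 in B6 males, and their part was not tested.

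The tables also give each gene's transcript length weighted by the share of its isoforms, which moves when isoform use moves. It differed between strains for 2 of the 10 members by limma's moderated F test, where 44.1% of the 13047 genes tested did. Cdkal1 had a shorter weighted length in PWK, 2153 ± 97.4 bases (SD, n = 5), than in the other 7 strains, whose means were 2372 to 2502 bases (adjusted p = 0.00803). Prox1 was also shortest in PWK, 7136 ± 178 bases against means of 7338 to 7457 (adjusted p = 0.0247). The other 8 members had adjusted p-values of 0.0854 or more. With untransformed length 3 members were called. Without the variance trend, or with only genes of at least 100 mean expected counts, 2 were called. No share over all genes was kept for these other length fits.

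Genes were also compared by how they varied among libraries once strain and sex had been removed. Libraries share tissue makeup, so these correlations over 91 libraries are descriptions. Prox1 varied closely with Arhgap32 (r = 0.837). Wfs1 did so with Surf4 (0.8504), a cargo receptor of the endoplasmic reticulum, and Creb3l2 (0.847), a membrane-bound transcription factor of the same compartment. Jazf1 was most like Khdrbs3 (0.827) and Stau2 (0.818), both RNA-binding proteins, and Camk1d most like Smpdl3a (0.844) and Gdpd5 (0.832). Adcy5 was most like Nrxn2 (0.722) and Arhgdia (0.632), Nfatc2ip like Phf11d (0.706) and Pde7a (0.695), and Igf2bp2 like Rassf6 (0.649) and Helq (0.512). The closest genes were less alike for Dgkb (Spock3, 0.612, and F5, 0.599), Cdkal1 (Tiprl, 0.562, and N4bp2l2, 0.552) and Tcf7l2 (Lmntd2, 0.546, and Msh5, 0.527). Among the members themselves, Jazf1 and Prox1 were the most alike (0.728) and Prox1 and Nfatc2ip the most opposed (-0.596).

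A wider list of 40 other genes at type 2 diabetes loci was set beside the members. Of these 39 were tested and 38 differed between strains, beside 97.4% of all genes, the exception being Ide (edgeR adjusted p = 0.0533), and Mtnr1b was below the filter. Their median share of variance between strains was 49.4%, beside 54.2% for the members. Strain means of Slc30a8, the zinc transporter of insulin granules, ran from 243 TPM in NZO to 656 in PWK, and those of Pparg from 0.914 TPM in PWK to 5.88 in NZO. Between wild-derived and classical strains 8 of the 39 were higher and 12 lower, near the 24.9% and 31.3% of all genes. For sex, Hhex, a homeobox factor of delta cells, was lower in males (log2 -0.22, edgeR adjusted p = 0.0404). Kcnk16, a potassium channel of islet cells, was higher (0.18, adjusted p = 0.0323). Hhex is also 1 of the 3 delta cell markers. In AJ, where no library went against its label, delta sums were 4758 to 6562 TPM in females and 3823 to 4847 in males. Their part in the Hhex difference was not tested.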

How the data were processed

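RNA was measured in 91 islet libraries of 16 samples, 1 for each of 8 strains and 2 sexes, and each library's strain and sex came from the sample labels. The authors quantified reads with RSEM against GENCODE vM18 on mm10, and the deposited tables hold, per gene and library, an expected count, a TPM and an isoform-weighted transcript length. The RSEM version is not given in the sources used here. Genes were matched to GENCODE M21 (54079 of 54146). Only protein-coding genes outside chromosome Y and the mitochondrion entered; the 10% of least variance, and any gene at 0 in more than 15% of libraries, were dropped, leaving 15204 genes with all 10 members. Expected counts, as deposited, were rounded and tested with edgeR 4.0.16 (quasi-likelihood, upper-quartile normalization, strain and sex) in R 4.3.3, and p-values were adjusted by Benjamini-Hochberg over all genes of each contrast. Fold changes are from this fit, levels are the deposited TPM, and normalized counts are counts divided by size factors. Shares of variance and correlations used log2(normalized count + 1). Lengths were tested with limma 3.58.1. The scripts were tested on simulated data.

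At these depths 3 counts correspond to 0.0852 to 0.177 CPM, which covers counting error only. Members and lists were chosen with earlier results of these data known. The genes named beside the members were those of the related lists and the 2 most alike genes of each member, of which 1 is not reported here. Wave, mouse identity and the other assays of the study were not analysed here. Promoter letters came from RefSeq, and motifs were searched on both strands. Alternatives were other scalings (TMM, median-ratio), other filters, limma-voom, DESeq2 1.42.0, covariates and left-out libraries, of which the fits without NOD, without its library with the most immune marker RNA, and of AJ, B6, CAST and WSB alone without the range of library numbers as a covariate were chosen after seeing the data.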

Additional observations from a re-analysis of the deposited data

Results flagged for a closer look

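A library was flagged where its TPM stood farther from the nearest library of its strain than Dixon's 95% critical value allows, in the 4 strains with 4 to 10 libraries. Of 40 gene and strain combinations 2 were flagged, where chance flags about 5% of such groups. Dgkb stood at 1.52 TPM in NZO replicate 4, the library labelled male, and at 0.79 TPM or less in the other 3 NZO libraries. In that library the summed ductal markers stood at 871 TPM and the immune markers at 794 TPM, beside at most 316 and 326 TPM in the other 3, and their part in its value was not tested. Nfatc2ip stood at 8.62 TPM in NOD replicate 7, and the next NOD library at 5.03 TPM. That library also held the highest immune marker sum and was 1 of the 12 whose sex genes went against the label. The part of either in the Nfatc2ip value was not tested.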

How the results depend on the processing

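All 10 members differed between strains under 23 of the 24 other fits, which included TMM, median-ratio size factors, filterByExpr, no filter, limma-voom, DESeq2 and left-out libraries. With counts summed to 1 value for each strain and sex, 9 did, and Tcf7l2 was lost (adjusted p = 0.229). With a log2 difference of at least 1 also required, 5 members, 30 pair calls and 2 strain calls were left, in place of 10, 151 and 47. The share of all genes that meets this size was not computed, so these counts cannot be set against a background. Members called between wild-derived and classical strains numbered 3 to 5 when single NZO or PWK libraries were left out, and 4 or 5, not always the same members, in the other fits. Members called for sex numbered 2 without the libraries against their sex label and 0 with summed counts. No share of all genes was kept for these fits either. The NOD difference of Prox1 changed sign with the immune covariate, to 0.021. Of 1034 alternatives to the 47 strain calls, 56 lost the call, 16 of them with summed counts and 12 with the immune covariate. Another 5 were lost within the same range of library numbers, which is another contrast of the main fit and not a refit. Tcf7l2 between AJ and NZO lost its call without NZO replicate 4 (-0.17), and Nfatc2ip between NOD and WSB with the immune covariate (0.26). No paired analysis was possible because the replicate numbers were given in order of library number within each strain and pair no mice. Low counts limit Dgkb, Igf2bp2 and Adcy5, and strains with 4 or 5 libraries limit NZO and PWK.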
